A study of Mus musculus with 12 samples.

Results

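The Lce3 genes are the third group of the late cornified envelope family. The 5 genes Lce3a, Lce3b, Lce3c, Lce3e and Lce3f were taken as the genes of that group that stood alone as the gene symbol of an array feature (a transcript cluster) in the platform's annotation. They had 1 transcript cluster each, 5 of the 21789 clusters with 1 symbol. Their relative Lce3d appeared only in a cluster that carried the symbols of all 6 Lce3 genes. The data are 12 microarrays of cultured primary keratinocytes from FVB/N mice, 3 in each of 4 groups. The first group was wild-type keratinocytes, used as the control. The second was wild-type keratinocytes that had been transduced with v-rasHa, an oncogenic viral Hras, and are called RAS cells here. Whether the wild-type cells were mock transduced is not given, so the oncogene and the transduction step cannot be told apart. The third was keratinocytes of MT-HGF mice, in which a metallothionein promoter, active in many cell types, drives a transgene for hepatocyte growth factor, the ligand of the receptor MET. The fourth was MT-HGF keratinocytes that were mock transduced and given AG1478, an inhibitor of the epidermal growth factor receptor kinase, for 24 h. The labels of the first 9 arrays carry a note on RAS transduction for 3 days and on regular medium, those of the AG1478-treated arrays name 8% serum, and no vehicle-treated arrays were analysed here. The inhibitor, the mock transduction, any difference in medium and any separate handling of those 3 arrays therefore cannot be told apart. The labels name biological replicates in the first 3 groups without their animals or cultures, and the spread behind the p-values may therefore be partly technical.

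Late cornified envelope genes lie side by side in the epidermal differentiation complex, a gene cluster that also holds the loricrin, involucrin, filaggrin and small proline-rich genes. They encode small proteins that transglutaminases crosslink into the cornified envelope, the protein shell that replaces the plasma membrane of keratinocytes in the outermost epidermis. In human skin the genes of the third group are known for low activity in healthy epidermis and for induction after barrier damage and in psoriasis, and a common deletion that removes LCE3B and LCE3C is associated with that disease. Antibacterial activity has been described for their proteins.

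The labelled cell type and transgene were checked first. Of 9 keratinocyte markers, among them Krt5, Krt14 and Trp63, 9 were above the array background in every group, with a mean level of 12.08 to 12.14 log2 units on each array. Hgf lay at 4.85 to 5.36 log2 units in wild-type and RAS arrays and at 10.59 to 10.80 in the MT-HGF arrays with and without AG1478. The v-rasHa transcript was not analysed here. Levels are log2 values per transcript cluster, and levels of different genes were not set against each other. As the background, each array's 95th percentile of the chemosensory receptor genes that passed a filter on low values was used. This class was taken as mostly silent in keratinocytes. The background lay between 6.80 and 7.13, with a mean of 6.97, and over all chemosensory clusters it was lower, at 6.22. Bulk RNA cannot tell a change in the number of expressing cells from a change in RNA per cell.

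Each Lce3 gene was lowest in wild-type cells, higher in AG1478-treated MT-HGF cells, higher again in untreated MT-HGF cells and highest on average in RAS cells. The levels of Lce3e were 6.81, 6.66 and 7.37 log2 units on the wild-type arrays, 9.46, 9.73 and 9.51 after AG1478, 10.94, 11.38 and 11.57 in MT-HGF cells and 11.48, 11.71 and 11.91 in RAS cells. Only 1 of the 3 wild-type arrays was above background, and the MT-HGF and RAS arrays overlapped.

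Lce3a had 5.66, 6.38 and 6.11 log2 units in wild-type cells, 7.35, 7.48 and 7.38 after AG1478, 9.46, 9.81 and 10.21 in MT-HGF cells and 11.06, 10.82 and 11.01 in RAS cells. The 4 groups did not overlap, and the wild-type arrays were not above background. Lce3f ran in the same order, with 5.48, 5.67 and 5.62 in wild-type cells, 7.68, 7.70 and 7.16 after AG1478, 9.36, 10.04 and 10.22 in MT-HGF cells and 10.39, 10.25 and 10.57 in RAS cells. Its MT-HGF and RAS arrays were separated by the step from 10.22 to 10.25 only.

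Lce3b and Lce3c share their names with the human pair lost in the deletion named above, and whether they are direct counterparts was not examined. Lce3b lay at 6.5, 6.42 and 6.54 log2 units in wild-type cells, below background on these 3 arrays, and at 7.14, 7.39 and 7.30 after AG1478. It reached 8.46, 8.86 and 8.97 in MT-HGF cells and 9.82, 9.19 and 9.98 in RAS cells. Lce3c was the only one of the 5 that was above background on all 3 wild-type arrays, at 10.14, 10.10 and 10.31 log2 units. It lay at 11.79, 11.76 and 11.87 after AG1478, at 12.67, 12.84 and 12.85 in MT-HGF cells and at 12.96, 13.07 and 13.00 in RAS cells. No 2 groups overlapped for either gene.

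**Figure D1:**
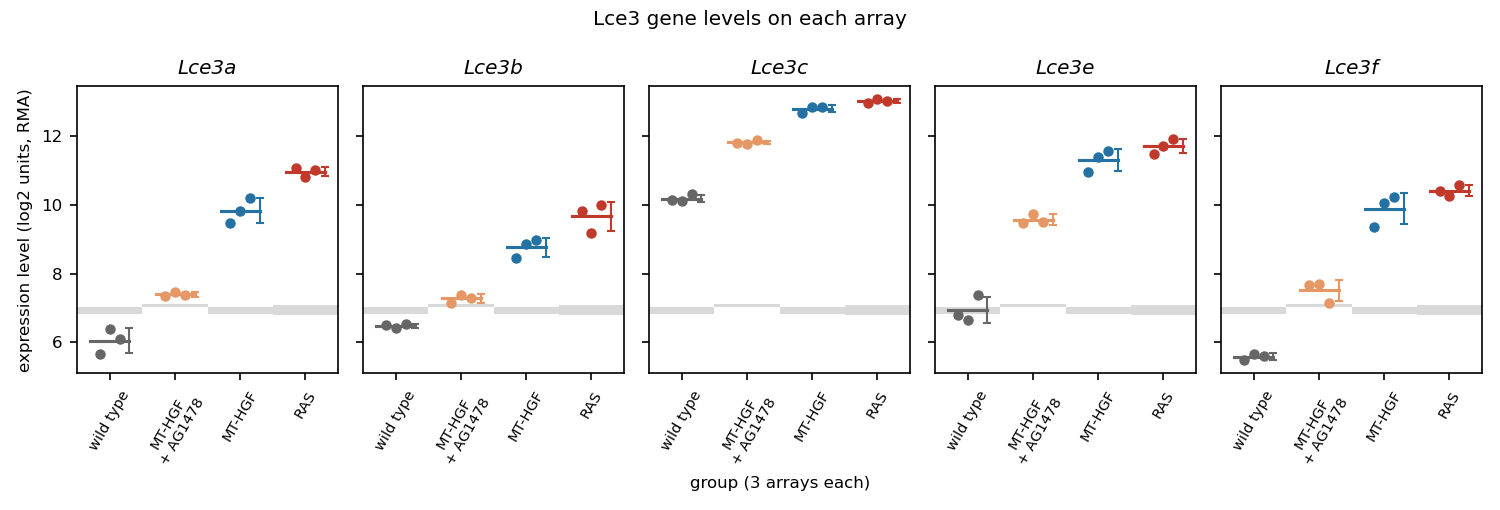
Level of each Lce3 gene (y axis, log2 units) on the 3 arrays of each group (x axis). Points are arrays, horizontal lines are group means, error bars are 1 SD and grey bands span the array background of the group. Each gene steps up from wild type through AG1478-treated and untreated MT-HGF to RAS, and Lce3e is the gene whose MT-HGF and RAS arrays overlap.

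The cluster that carries all 6 Lce3 symbols, which was not part of the gene tests, had the same order of groups. It lay at 10.09 to 10.24 log2 units in wild-type cells, 11.76 to 11.78 after AG1478, 12.86 to 13.06 in MT-HGF cells and 13.26 to 13.41 in RAS cells, without overlap. The members are close in sequence, and whether their 5 clusters share probes or RNA of one another was not tested, so the values of single members are uncertain.

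The sequences just before the transcription starts show how alike the members are, and are given because the 5 genes moved together. RefSeq (GRCm38.p6) places the genes in the order Lce3a, Lce3b, Lce3c, Lce3d, Lce3e and Lce3f on chromosome 3, with Lce3a on the minus strand and the others on the plus strand. The 100 bases before each start follow, 5′ to 3′ on the strand of the gene. They lie at chr3:92926231-92926330 (Lce3a), chr3:92932879-92932978 (Lce3b), chr3:92944386-92944485 (Lce3c), chr3:92966961-92967060 (Lce3e) and chr3:92992117-92992216 (Lce3f). Capitals mark the 6 letters ATAAAA, the longest run found in all of these windows, and an 18-base run found in 3 of them.
Lce3a: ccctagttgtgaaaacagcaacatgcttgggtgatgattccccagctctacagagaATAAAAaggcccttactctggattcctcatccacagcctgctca
Lce3b: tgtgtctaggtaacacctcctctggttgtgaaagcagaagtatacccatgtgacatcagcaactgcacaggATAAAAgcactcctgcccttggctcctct
Lce3c: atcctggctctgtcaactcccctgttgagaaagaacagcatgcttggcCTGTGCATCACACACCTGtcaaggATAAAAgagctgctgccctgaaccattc
Lce3e: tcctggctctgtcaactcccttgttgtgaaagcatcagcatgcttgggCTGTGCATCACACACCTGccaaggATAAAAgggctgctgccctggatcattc
Lce3f: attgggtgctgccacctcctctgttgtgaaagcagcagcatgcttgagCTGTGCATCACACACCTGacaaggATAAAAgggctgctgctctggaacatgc

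The run ATAAAA began 28 bases before the start in Lce3c, Lce3e and Lce3f, 29 before it in Lce3b and 44 before it in Lce3a. The letters were chosen after the sequences were seen, and they occurred on either strand in 17.0% of 32851 RefSeq windows of 250 bases before a start. The 18-base run of Lce3c, Lce3e and Lce3f was held by 3 of these windows, those of the 3 genes themselves. Lce3c and Lce3e were 90.1% identical over the 100 bases, Lce3e and Lce3f 85.3%, Lce3b and Lce3e 67.9%, and Lce3a and Lce3e 54.2%.

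Other motifs were searched in the 250 bases before the start of the 6 Lce3 genes, on both strands. TGANTCA, the letters bound by AP-1 factors, occurred in 0 of 6 against 6.75% of all windows, and AACCGG, of the type bound by grainyhead-like factors, in 0 of 6 against 5.62%. TATAAA, which shares letters with the searched ATAAAA, occurred in Lce3e only (12.4% of all windows). That match lay outside the bases of Lce3e printed above, and so not at the marked ATAAAA run. TTGCNNAA, of the C/EBP type, occurred in Lce3f only (9.56%) and GGGNGG, of the KLF or SP type, in Lce3a and Lce3b (64.5%). These are matches of letters in a short window and are no measure of binding.

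The 5 genes were first compared between RAS and wild-type cells, which differ in the oncogene and perhaps also in the transduction step. All 5 were higher, where 12.6% of the 15868 genes tested were called higher with limma at an adjusted p under 0.05. For all 5 the arrays did not overlap, as for 16.6% of all genes in this direction. Lce3c, measured above background on both sides, was 7.11-fold higher (2.83 ± 0.074 log2 units, SE, 3 arrays each; adjusted p = 9.64e-14 in limma). Lce3e was higher by 4.76 ± 0.17 log2 units (adjusted p = 1.36e-12 in limma), with 2 of 3 wild-type arrays not above background. For the others the wild-type arrays were not above background and the difference is a bound, taken against the background of those arrays. Lce3a was at least 16.2-fold, Lce3f at least 11-fold and Lce3b at least 6.61-fold higher. The median of all genes tested was -0.02 log2 units. Lce3f passed the filter on low values through the other groups alone, since 0 of its wild-type arrays reached the 30th percentile of their array, so it had to differ to be tested. Its call was also made with no filter.

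MT-HGF cells, which were not given the oncogene, were compared with wild-type cells next. The labels do not name the animals, so the transgene and other differences between the mice cannot be told apart. The 5 genes were higher here too, where 17.1% of all genes were called higher, and did not overlap, as 20.8% of all genes did not in this direction. Lce3c rose 6.08-fold (2.60 ± 0.074 log2 units, SE, 3 arrays each; limma adjusted p = 1.18e-13) and Lce3e by 4.35 ± 0.17 log2 units (limma adjusted p = 3.45e-12), the latter against wild-type arrays of which 2 of 3 were not above background. As bounds, Lce3f was at least 7.64-fold, Lce3a at least 7.38-fold and Lce3b at least 3.54-fold higher. Among the MT-HGF arrays replicate 1 was the lowest and replicate 3 the highest for each of the 5 genes, with a spread of up to 0.45 log2 units (SD, Lce3f). The RAS and MT-HGF comparisons share their wild-type arrays, so agreement between them is not independent.

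Set against each other directly, MT-HGF cells were below RAS cells for Lce3a and Lce3b, while the other 3 members were close to the limit of the test. Lce3a was lower by 1.14 log2 units (-1.14 ± 0.17; limma adjusted p = 8.83e-05, n = 3 per group) and Lce3b was at -0.90 ± 0.16 (limma adjusted p = 0.000479). Lce3f (-0.53, adjusted p = 0.0357 in limma) and Lce3c (-0.23, limma adjusted p = 0.0323) were called lower, and Lce3e (-0.41, limma adjusted p = 0.0923) was not. In all, 4 of 5 were called lower, where 12.6% of all genes were, and the same 4 were lower without overlap, as 19.6% of all genes were. Leaving out MT-HGF array 1 ended the calls of Lce3f (-0.27) and Lce3c (-0.17) and put Lce3e at -0.23. The call of Lce3f also ended without RAS array 1 or 3, and that of Lce3c without MT-HGF array 2, RAS array 2 or RAS array 3, while without MT-HGF array 3 Lce3e was called at -0.55.

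The AG1478-treated MT-HGF cells were set against untreated MT-HGF cells. In this comparison the inhibitor, the mock transduction, any difference in medium and any separate handling go together. The 5 genes were lower on each treated array than on each untreated one, and 5 of 5 were called lower, where 9.91% of all genes were called lower and 17.5% were lower without overlap. Lce3a fell 5.37-fold (-2.42 ± 0.17 log2 units, SE, n = 3 per group; limma adjusted p = 3.74e-08), which held the first place from the lowest among the 15868 genes tested. Lce3f (-2.36 ± 0.18), Lce3e (-1.73 ± 0.17) and Lce3b (-1.49 ± 0.16) held places 3, 8 and 14 in that order, and Lce3c (-0.98 ± 0.074) place 50. The limma adjusted p of these 4 lay between 9.74e-08 and 4.91e-06. The treated arrays were above background for each of the 5 genes, so these differences are no bounds.

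After AG1478 the genes still did not reach the wild-type level. Compared with wild-type cells, 5 of 5 were called higher, where 16.8% of all genes were, and 5 of 5 did not overlap, against 21.1% of all genes. Lce3c remained 3.08-fold higher (1.62 ± 0.074 log2 units, SE; limma adjusted p = 2.85e-11, n = 3 per group). Lce3e was higher by 2.62 ± 0.17 log2 units (limma adjusted p = 2.30e-09), again with 2 of 3 wild-type arrays not above background. For Lce3f, Lce3a and Lce3b the bounds were 1.49-fold, 1.38-fold and 1.26-fold or more, and that of Lce3f was 2.45-fold with the background taken over all chemosensory clusters. Against RAS cells the treated cells were lower for 5 of 5, where 20.4% of all genes were called lower and 23.9% were lower without overlap, from -3.56 log2 units for Lce3a to -1.21 for Lce3c.

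**Figure D2:**
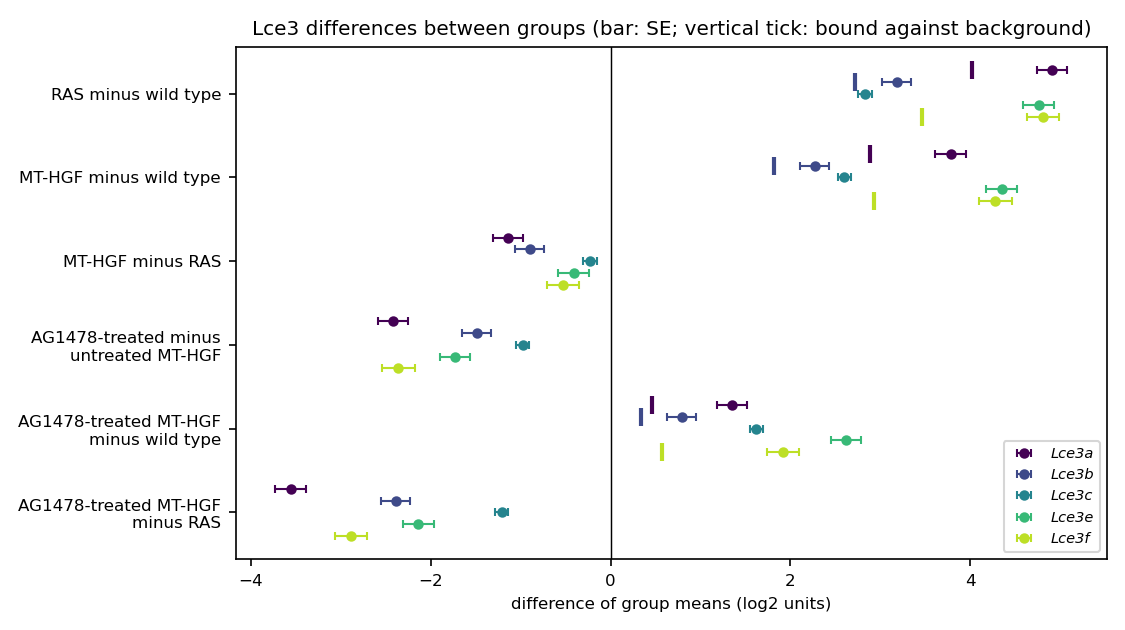
Differences of group means for each Lce3 gene (x axis, log2 units) in the 6 comparisons (y axis). Points are estimates with their SE, vertical ticks are bounds where the lower group was not above background. The 5 genes lie to the right of 0 in the 3 comparisons with wild type and to the left of 0 in the other 3. In MT-HGF minus RAS they span -1.14 to -0.23.

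Markers of other cell types moved in some of these comparisons, and their part in the Lce3 results was not tested. Fibroblast markers, 8 of 9 of which were above background in each group, had a mean level of 8.57 to 8.67 log2 units on the wild-type arrays, 8.00 to 8.03 in RAS cells, 8.40 to 8.48 in MT-HGF cells and 8.41 to 8.46 after AG1478. Of these 9, 0 were called higher and 5 lower in RAS cells, 3 higher and 6 lower in MT-HGF cells, and 0 higher and 1 lower with AG1478. Between MT-HGF and RAS cells 6 of the 9 were higher and 1 lower in MT-HGF cells. Over the 15868 genes tested, 2004 were higher and 3154 lower in RAS than in wild-type cells, and 2707 higher and 3789 lower in MT-HGF cells. Between MT-HGF and RAS cells 2129 of all genes were higher and 2002 lower in MT-HGF cells, and with AG1478 1043 were higher and 1572 lower. The 8 melanocyte markers were above background in each group and had means of 9.98 to 10.17 in wild-type, 10.09 to 10.24 in RAS, 9.69 to 9.87 in MT-HGF and 9.73 to 9.82 in treated cells, with 6 of 8 called lower in MT-HGF than in wild-type cells and 6 of 8 lower than in RAS cells. Of 7 leukocyte markers measured, 2 (Cd68 and Lyz2) were above background on all 3 wild-type arrays and 1 (Cd68) in each other group, and 0 arrays had Ptprc, the pan-leukocyte gene, above background. Cd68, a lysosomal gene of macrophages, was higher by 1.29 log2 units in RAS and 1.28 in MT-HGF cells and at -0.16 with AG1478 (limma adjusted p = 0.376). Lyz2 went the opposite way, at -1.66 in RAS and -1.98 in MT-HGF cells (limma adjusted p = 2.77e-06 and 2.26e-07). These values of Lyz2 are before bounds, since 0 of its arrays in those groups were above background. Of the 7 markers, 1 was called higher and 1 lower in RAS cells, 1 higher and 2 lower in MT-HGF cells, and 1 higher and 0 lower with AG1478. The means of the 7 were 6.81 to 6.98 in wild-type, 6.75 to 6.86 in RAS, 6.67 to 6.77 in MT-HGF and 6.68 to 6.88 in treated cells. None of the 4 endothelial markers measured was above background on all arrays of a group, with means of 6.29 to 6.39, 6.18 to 6.34, 6.15 to 6.22 and 6.11 to 6.29 in the same order of groups.

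The other late cornified envelope genes gave a different picture in MT-HGF cells, although the difference between the families was not tested. All 14 measured genes of the family outside Lce3, 13 Lce1 genes and Lce6a, were called higher in RAS cells, where 12.6% of all genes were. Their median before bounds was 2.15 log2 units, with a span from 1.14 (Lce1a2, a value before the bound of 0.16) to 3.07 (Lce1i). In MT-HGF cells 13 of 14 were called higher, where 17.1% of all genes were. Among these, Lce1a2 and Lce1f had no array above background in either group, so their calls are uncertain. Lce1d and Lce1l were higher by at least 0.29 and 0.09 as bounds. The median of the 14 was 0.82 before bounds, from -0.02 (Lce1h, adjusted p = 0.934 in limma) to 1.71 (Lce1e). The 5 Lce3 genes ranged from 2.27 to 4.35 before bounds. Directly compared, 14 of 14 were lower in MT-HGF than in RAS cells, where 12.6% of all genes were called lower. The median of the 14 was -1.21 before bounds.

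With AG1478 4 of these 14 relatives were called lower, where 9.91% of all genes were, and 1 higher, where 6.57% of all genes were, with a median of -0.16 log2 units. Lce1i (-0.75), Lce1g (-0.70) and Lce1e (-0.60) fell, as did Lce1d (by at least 0.18 as a bound), and Lce6a was higher by 0.64 ± 0.12 (limma adjusted p = 0.00166, n = 3 per group). Lce1a1, the family member with the second largest MT-HGF difference outside Lce3 at 1.70, was at -0.05 (limma adjusted p = 0.804).

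The place of the Lce3 genes on the chromosome was set beside these values. The 20 tested genes before Lce3a in RefSeq order run from Sprr3 to Lce1l. They include the Lce1 genes and Lce6a counted above, with the same limits, and genes of the envelope lists below, so the counts overlap. Of the 20, 19 were called higher in RAS and 18 in MT-HGF cells, where 12.6% and 17.1% of all genes were. Their medians were 2.06 and 0.83 log2 units. The 20 after Lce3f begin with Crct1, a cysteine-rich neighbour in the complex, and run past the end of the complex, and 7 of them were called higher in each comparison. The nearest tested neighbours were Lce1l, at least 1.80 higher in RAS and at least 0.09 higher in MT-HGF cells, and Crct1, at 2.21 and 2.14. With AG1478 Lce1l was at -0.15 (limma adjusted p = 0.239), with its treated arrays not above background, and Crct1 at -0.26 (limma adjusted p = 0.0192). Crnn, the cornulin gene next to Crct1, was named after its values were seen. It was at 1.50 in RAS and 1.70 in MT-HGF cells, and with AG1478 at -1.17 (limma adjusted p = 2.32e-06), within the range of the Lce3 genes. With AG1478 6 of the 20 genes before Lce3a were called lower and 2 higher, and of the 20 after Lce3f 2 were lower and 5 higher. Over all genes tested, 9.91% were called lower and 6.57% higher. The call of Crct1 ended without AG1478-treated array 1 (-0.23) or 2 (-0.21), or MT-HGF array 2 or 3 (-0.25 each).

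**Figure D3:**
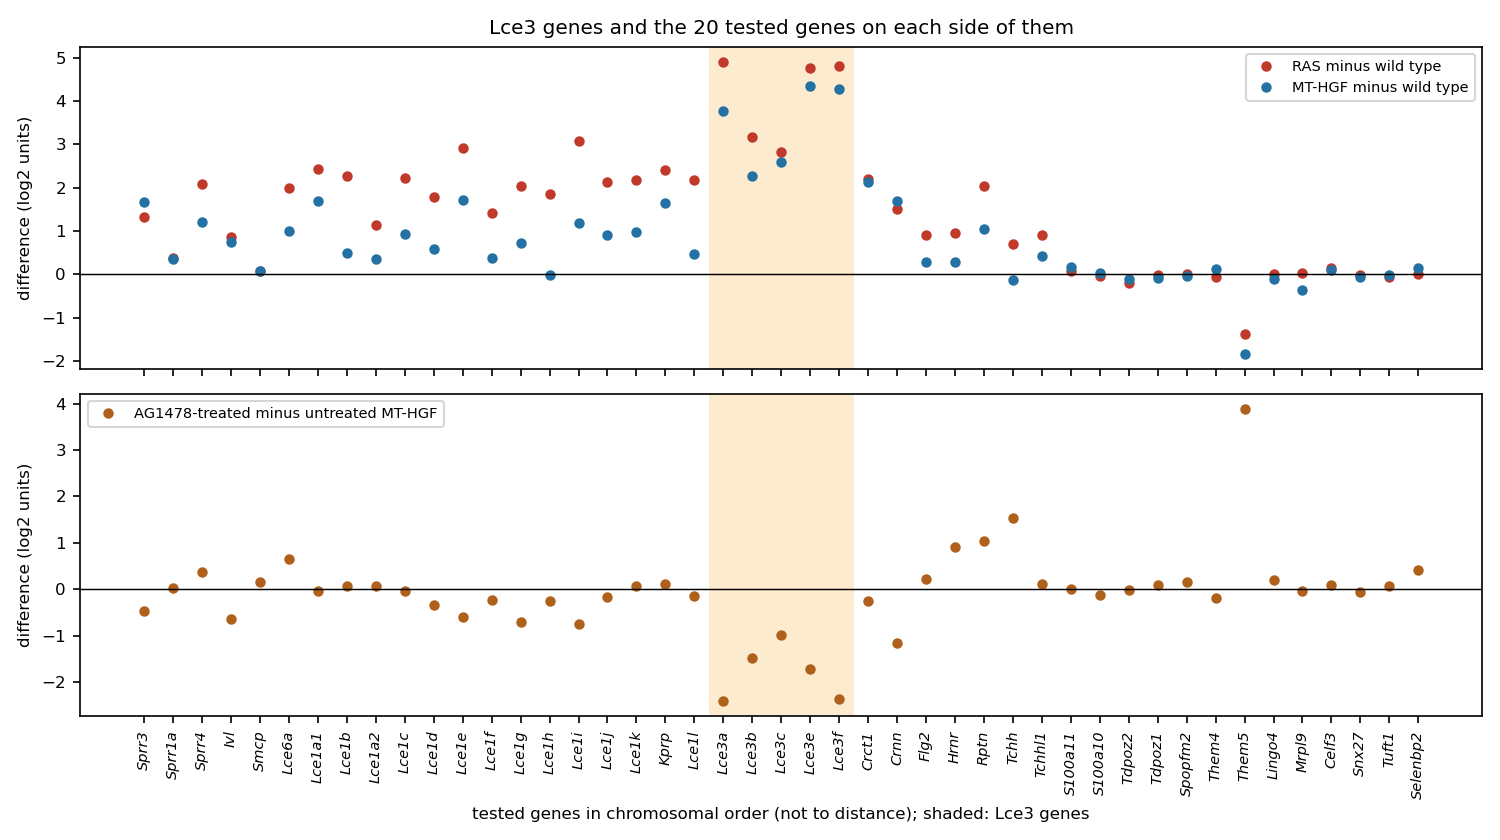
Differences of group means (y axes, log2 units, before any bound) for the Lce3 genes, shaded, and the 20 tested genes on each side in chromosomal order (x axis, not to distance). The upper panel shows RAS and MT-HGF minus wild type, the lower panel AG1478-treated minus untreated MT-HGF. The shaded genes lie between -2.42 and -0.98 in the lower panel, the nearest neighbours on either side at -0.15 and -0.26, and Crnn, the second gene to the right, at -1.17.

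Most of the measured genes that build or crosslink the rest of the envelope were called higher in both kinds of cell, against 12.6% of all genes in RAS and 17.1% in MT-HGF cells. With AG1478 the shares over all genes were 6.57% higher and 9.91% lower. Of 13 measured small proline-rich genes, which encode stress-type envelope precursors, 12 were higher in RAS and 12 in MT-HGF cells and 0 lower in either, with medians of 1.96 and 2.13 log2 units. Sprr2g was at 3.48 and 4.09 and Sprr2e at 2.97 and 3.67, with the reservation that Sprr2 genes are close in sequence. After AG1478 8 of the 13 were lower and 2 higher (median -0.31). Sprr2g was at -1.23 and Sprr2e at -0.60. Sprr2b, named after its values were seen, rose by 1.48 (limma adjusted p = 9.4e-09), the largest change of the list in either direction. Other envelope precursors and the filaggrin family had 14 of 16 measured genes higher in RAS and 15 in MT-HGF cells (medians 1.01 and 1.09). Kprp was at 2.41 and 1.66, Rptn, the repetin gene, at 2.05 and 1.04, and Cnfn, the cornifelin gene, at 1.84 and 1.81. With AG1478 this list divided into 6 higher and 4 lower (median 0.13), Rptn rising by 1.04 ± 0.16.

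Transglutaminases and envelope-processing genes had 13 of 14 higher in RAS and 13 in MT-HGF cells (medians 1.34 and 1.28 log2 units), among them the lipoxygenase genes Alox12b (3.06 and 2.68) and Aloxe3 (1.95 and 1.23) and the transglutaminase gene Tgm3 (1.91 and 1.84). With AG1478 3 were higher and 5 lower (median -0.14), and Tgm3 (0.97 ± 0.11) and Alox12b (-0.89 ± 0.10) went opposite ways. Epidermal transcription factors had 12 of 19 higher and 2 lower in RAS cells and 12 higher and 1 lower in MT-HGF cells (medians 0.43 and 0.49), led by Prdm1 at 2.69 and 2.29 and Hopx at 1.92 and 2.18. Of these 19, 7 were higher and 5 lower with AG1478 (median 0.16), and the AP-1 gene Fos was at -1.04 ± 0.071. Of the other AP-1 genes listed, Fosl1 (-0.60) was called lower, Jun (0.39), Jund (0.34) and Fosl2 (0.23) were called higher, and Junb (-0.05) was not called.

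Genes of barrier repair and psoriasis, the setting in which human LCE3 genes are known, had 19 of 23 measured members higher in RAS cells and 0 lower, and 19 higher and 1 lower in MT-HGF cells, with medians of 1.34 and 1.57 log2 units. The beta-defensin gene Defb14 was at least 13.8-fold and at least 10.3-fold higher, the cytokine gene Il24 at 3.53 and 3.00 log2 units, and Il1f6, which encodes an interleukin 36, at 1.93 or more and 3.08 or more. With AG1478 8 of 23 were lower and 5 higher (median 0.02). Defb14 fell by 1.88 log2 units (limma adjusted p = 1.35e-07), whereas Il1f6 was at 0.07 (limma adjusted p = 0.72). Other genes of the list, named after their values were seen, were called higher. They were Lcn2 (1.43) and the beta-defensin genes Defb3 (0.67) and Defb4 (0.65, from an untreated mean of 6.92, near the background). The medians of all genes tested were -0.03 for MT-HGF against wild type and 0.02 for AG1478, and the shares of all genes called are those given above for the envelope lists.

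The genes whose course over the 12 arrays was most like that of each member were ranked by the root mean square difference of log2 values, after each gene was centred on its mean. The 5 members were left out of the ranking. It uses the measured values also where they are not above background, as on the wild-type arrays of Lce3a, Lce3b and Lce3f and of 11 of the 17 genes named here, Defb14 among them, so that the order of the nearest genes is uncertain there. Defb14 was the nearest gene for Lce3e, with a difference of 0.247 log2 units, and for Lce3f (0.305), and the second nearest for Lce3a (0.482). Krt23, a keratin gene, the serine protease gene Prss22 and the surface antigen gene Psca followed for both Lce3e and Lce3f. Lce3e had Krt23 at 0.391, Prss22 at 0.426, Psca at 0.433 and the retinol dehydrogenase gene Dhrs9 at 0.497, and Lce3f had Prss22 at 0.570, Krt23 at 0.576, Prl7b1 at 0.611 and Psca at 0.654.

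The measure is not scaled to the size of a change. Lce3a, Lce3f and Lce3e held places 1 to 3 from the highest of 15868 genes in RAS against wild type, so few genes could lie near them. Lce3c had the smallest such difference of the 5 members, at 2.83 log2 units. Distances are therefore not comparable between members. Lce3c had the gap junction gene Gjb6 at 0.110, the barrier lipoxygenase gene Alox12b at 0.123, Tmem40 at 0.135, the sodium channel gene Scnn1b at 0.165 and Myzap at 0.168. Gjb6 lay at 2.79 log2 units in RAS cells before its bound of 2.5, at 2.54 in MT-HGF cells before its bound of 2.24, and at -0.97 with AG1478, beside 2.83, 2.60 and -0.98 for Lce3c. For Lce3b the nearest were the protease inhibitor gene Spink7 (0.208), Kctd4 (0.250), the placental prolactin family gene Prl8a9 (0.271), the semaphorin gene Sema7a (0.274) and the phospholipase gene Pla2g4d (0.275). For Lce3a they were Prl7b1, of the same prolactin family (0.387), Defb14, the carbonic anhydrase gene Car2 (0.554), Prl8a9 (0.602) and Spink7 (0.677). No gene of the Lce1 group was among these nearest genes, a result that depends on the size of their differences as well as on their course.

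**Figure D4:**
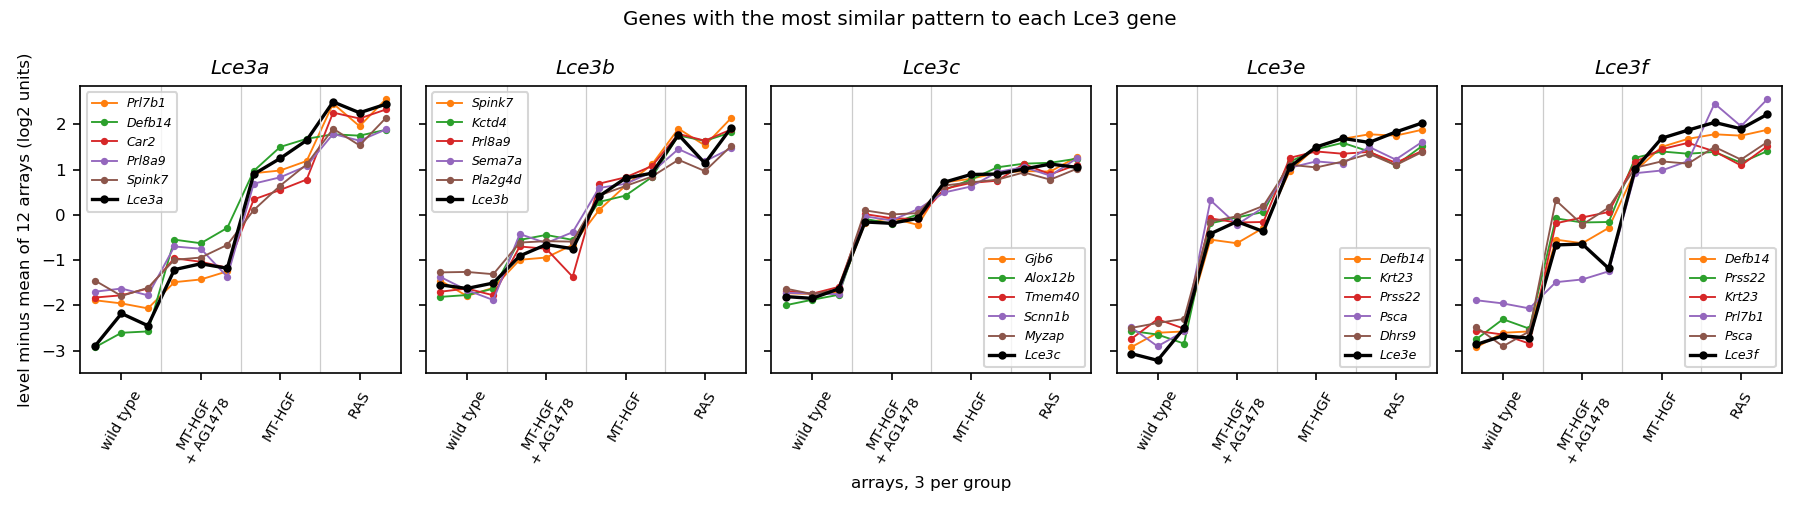
Level of each Lce3 gene (black) and of the 5 genes nearest to it (colours), each minus its mean over the 12 arrays (y axis, log2 units), with 3 arrays per group (x axis). The lines of Lce3c and its matches nearly coincide, at root mean square differences of 0.110 to 0.168, and those of Lce3f lie farther apart, at 0.305 to 0.654. These differences are not scaled to the size of a change and are not comparable between members.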

How the data were processed

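Labelled RNA of 12 samples was read on Affymetrix Mouse Gene 1.0 ST arrays. The authors deposited log2 values from RMA, per the submitters' processing notes. No source used here gives its version or says whether the 4 groups were normalized together. Array medians were 6.77 to 6.84 log2 units. Arrays have no read depth, and 3 per group limit the precision.

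Of 35511 transcript clusters, 21789 had 1 symbol in the platform annotation, 1621 several and 12101 none. Clusters had to exceed the 30th percentile of the array on 3 or more arrays, and the cluster with the highest mean stood for a gene, which gave 15868 genes tested. All 5 Lce3 genes were among them. A group-means model over 12 arrays was fitted with limma 3.58.1 in R 4.3.3, with 8 residual and 8.02 prior degrees of freedom, two-sided p-values and Benjamini-Hochberg adjustment over all genes of a comparison. On simulated arrays for RAS against wild type, 99.0% of 200 genes changed by 1 log2 unit out of 15868 were recovered. Background was, per array, the 95th percentile over the 158 chemosensory receptor genes left after filtering. A bound was given where no array of the lower group exceeded it. Promoter windows came from RefSeq, GRCm38.p6, for the 5 members and Lce3d, and were aligned with Biopython 1.88. Protein sequences were not used here.

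Members and lists were chosen with earlier results of these data known. Named genes were the members, measured genes of the late cornified envelope list, up to 4 called genes with the largest RAS or MT-HGF difference in each other list, and the 5 genes most alike to each member. Of the late cornified envelope list, Lelp1 was below the background and is given no difference. Replicate numbers were checked and not taken to pair arrays. Alternatives covered the filter, normalization, spread, array weights, samples fitted, replicate block, feature set, background and each array left out.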

Additional observations from a re-analysis of the deposited data

How the results depend on the processing

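Outside the comparison of MT-HGF with RAS, 25 of 25 Lce3 differences kept their direction and call under each of 15 alternatives. In MT-HGF against RAS, Lce3f was not called with no filter (-0.53, adjusted p = 0.052) or with array-median centring (-0.53, adjusted p = 0.0508). With every kept cluster as a feature, Lce3f (-0.53, adjusted p = 0.0911) and Lce3c (-0.23, adjusted p = 0.0526) lost their calls, leaving 2 members lower. Lce3e was called after a further quantile normalization (-0.46, adjusted p = 0.0471), with the 2 groups alone (-0.41, adjusted p = 0.0456) and with a replicate block (-0.41, adjusted p = 0.0281). Without 1 array at a time, Lce3c ranged from -0.26 to -0.17, Lce3e from -0.55 to -0.23, Lce3f from -0.70 to -0.27 and the members called lower from 2 to 5. The cause was not tested. The replicate block changed no other call of a Lce3 gene. The numbers were not taken as pairs: deviations from group means correlated above 0.1 in 7 of 18 same-numbered pairs of arrays and in 10 of 36 others.

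Array weights raised the genes called to 8096 from 5158 in RAS against wild type and to 3925 from 2615 for AG1478, and the cause was not tested. Over all chemosensory clusters the background was 6.22 in place of 6.97 log2 units. Lce3a was then above it on 1 and Lce3b on 3 of the 3 wild-type arrays, and these genes had no bound. Lce3e was also above it on 3 of 3 wild-type arrays, in place of 1. Lce3f was at least 18.1-fold higher in RAS, 12.6-fold in MT-HGF and 2.45-fold in AG1478-treated cells. Differences near 0 changed sign: Lce1h in MT-HGF cells (-0.02) ranged from -0.17 to 0.07 (0.04 in 2 cases) without an array. For AG1478, Lce1c (-0.03) came to 0.02 after quantile normalization and ranged from -0.18 to 0.09 without an array. Lce1b (-0.05 to 0.22), Lce1a1 (-0.19 to 0.05) and Il1f6 (-0.05 to 0.17) also changed sign without an array.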

Other observations

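Them5, a thioesterase gene that lies among the 20 tested genes after Lce3f, was picked out after its values were seen. It went the opposite way to the Lce3 genes in each of these comparisons: it was at -1.38 log2 units in RAS cells and -1.84 in MT-HGF cells against wild type, and higher by 3.89 after AG1478 (limma adjusted p = 2.57e-10, n = 3 arrays per group).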
